A study of Mus musculus with 57 samples.

Results

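The genes described here are 6 genes of naive and recirculating T cells, Ccr7, Klf2, Tcf7, Lef1, Il7r and Satb1, measured in single mouse T helper 2 (Th2) cells after differentiation and restimulation. They were chosen by name, by a rule that sets no threshold on a value though earlier results of these data were known, and all 6 were among the 10565 genes of the deposited expression table, where they stand as ccr7, klf2, tcf7, lef1, il7r and satb1. The study sequenced RNA from 56 single cells and from a pool of 10000 cells, which was not analysed here. All cells share 1 treatment and form 1 group: wild type C57BL/6 mice, 8 weeks old, gave splenic CD4+ T cells that were activated through CD3 and CD28 with interleukin-4 and anti-IFNγ. Interleukin-2 was added 2 days later, the culture lasted 5 days, and the resulting Th2 cells then received anti-CD3 and anti-CD28 a further time. Neither unstimulated nor naive cells are among the samples, so no level here can be set against a naive T cell. A Fluidigm C1 instrument captured the cells singly in microfluidic chambers.

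Naive T cells recirculate through lymph nodes. The chemokine receptor Ccr7 guides them into the T cell zone. Klf2 is a transcription factor of quiescent T cells that maintains the gene for the sphingosine 1-phosphate receptor S1pr1. Tcf7 and Lef1 encode related HMG-box factors (TCF-1 and LEF-1) needed in thymocytes and typical of naive and memory cells. Il7r encodes the alpha chain of the interleukin-7 receptor, a survival receptor, and Satb1 a genome organiser that has been linked to the Th2 cytokine locus. T cell activation is known to lower Ccr7, Klf2, Tcf7, Lef1 and Il7r.

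Values are TPM, each gene's length-scaled part of a cell's transcripts, which puts genes on 1 scale. Levels between genes are still uncertain here, since the glycolytic enzyme Gapdh, usually abundant, had a mean of 29.3 TPM in 54 cells and Actb one of 13891 TPM in 56. Detection of a gene means a value of at least 1 TPM. TPM keeps no sequencing depth, and a value of 0 may be a transcript lost in capture: the general factor Tbp was detected in 28 cells and Sdha in 36. Each share of cells is given with its 95% interval (exact, Clopper-Pearson), and that interval reflects counting error alone. The titles number the cells within 5 sets, T1 with 8 cells and T2 to T5 with 12 each; what a set is remains unstated, so sets were treated as possible batches. The median cell had 4743.5 genes detected, from 2679 in T4_3 to 8396 in T3_5. No label names animals or cultures, so the cells count as 1 sample, and no p-value was computed.

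The label of effector cells was checked against activation and lineage genes. Every one of the 56 cells had the Th2 regulator Gata3 (mean 904 TPM), the activation marker Cd44 (350 TPM) and the high-affinity interleukin-2 receptor chain Il2ra (660 TPM). The lowest Il2ra value was 31 TPM, in T3_6. Of the T cell markers, 8 of 8 were measured, with Cd3d, Cd3e and Cd2 in 56 cells each. Cd28 was in 55 cells, Cd3g and Thy1 in 54 each and Lck in 53. Cd4 was in 37 only, at a mean of 47.4 TPM and a median of 8.5 TPM. Of 8 B cell markers, Cd74 was in 32 cells and Cd37, which T cells also express, in 45; the other 6 and the 6 myeloid markers were not analysed here. Of markers of CD8 T and NK cells, Nkg7, a cytotoxic granule gene, was in 24 cells at a mean of 246 TPM (highest 5592, T1_7). Cd8b1 was in 1 cell, T3_5, at 24 TPM, and the mast cell gene Cpa3 was in 5. With Satb1, Cd74 had a rank correlation (Spearman's rho) of 0.29, Cd37 of 0.22 and Nkg7 of -0.08, and Nkg7 was at 0.23 or less with each of the 6 genes; their part in the results was not tested. Cells with naive genes were therefore cells that carried activation genes as well.

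The 6 genes differed in how many cells held them. Satb1, Il7r and Lef1 were found in most cells, Ccr7 in about every other cell, and Tcf7 and Klf2 in a minority. The median over the 6 was 34 cells and a mean of 64.0 TPM, against 22 cells and 17.8 TPM for the median gene of the table. Of the 6, 3 (50%) were in at least 28 cells, as were 40.8% of all genes.

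**Figure D1:**
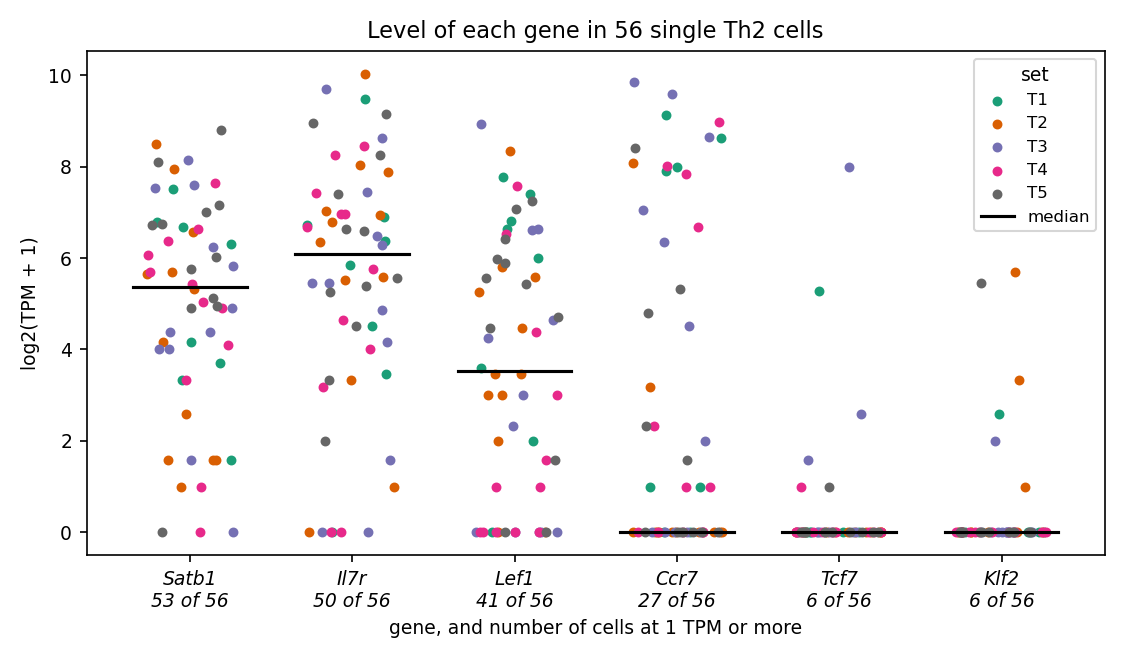
Level of each gene in every cell, as log2(TPM + 1) on the vertical axis. Each point is 1 of 56 cells, coloured by set, and the bar is the median. Satb1, Il7r and Lef1 have medians above 0, while the medians of Ccr7, Tcf7 and Klf2 lie at 0.

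Satb1 was the most widely detected of the transcription factors. It was in 53 of 56 cells (94.6%, 95% interval 85.1 to 98.9), with a lowest value of 0, a median of 40.5 and a highest of 443 TPM (T5_1). Its mean was 76.7 TPM (SD 95.7), and 15 cells held 100 TPM or more. The 3 cells listed at 0 were T3_4, T4_3 and T5_11. By set it was in 8 of 8, 12 of 12 and then 11 of 12 cells in each of T3, T4 and T5, so no set lacked it.

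Lef1 was in 41 cells (73.2%, 59.7 to 84.2), with a median of 10.5 and a highest value of 490 TPM (T3_12); its mean was 51.2 TPM (SD 88.6). The set medians ranged from 1 TPM in T4 to 80.5 TPM in T1. Its relative Tcf7 was in 6 cells only (10.7%, 4.03 to 21.9). Those cells were T3_7 with 252 TPM, T1_3 with 38, T3_5 with 5, T3_11 with 2, and T4_2 and T5_4 with 1 each. A single cell, T3_7, thus held 84.3% of all Tcf7, and the mean of 5.34 TPM rests on it. Without that cell the mean was 0.855 TPM, and without set T3 it was 0.909 TPM. In T2, Tcf7 was listed at 0 in all 12 cells; counting 3 cells as the limit for a count of 0, up to 25% of cells could have a value, and this says nothing of transcripts lost in capture.

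Klf2 was as rare as Tcf7, again in 6 cells (10.7%, 4.03 to 21.9), at a mean of 2.00 TPM, or 1.11 TPM without its highest cell and 1.16 TPM without set T2. It stood at 51 TPM in T2_7, 43 in T5_7, 9 in T2_2, 5 in T1_1, 3 in T3_5 and 1 in T2_10. None of the 12 cells of T4 had it, with the same limit. Only T3_5, the cell with the most genes detected, had both Klf2 and Tcf7, against 0.643 cells expected from the 2 shares.

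Among the receptors, Il7r had the highest mean of the 6 genes, 144 TPM (SD 215). It was in 50 cells (89.3%, 78.1 to 96.0), with a median of 67 and a highest value of 1045 TPM (T2_4). It reached 100 TPM in 22 cells and was listed at 0 in 6. The set medians lay between 43 and 95 TPM, and all 12 cells of T5 had it.

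Ccr7, the lymph node entry receptor, was in 27 cells (48.2%, 34.7 to 62.0), with a median of 0 and a highest value of 928 TPM (T3_7). Its mean was 99.1 TPM (SD 202). The cells did not form a smooth range: 29 cells were listed at 0, 9 held 1 to 9 TPM and 14 held 100 TPM or more, which leaves 4 between. Sets differed in how many cells had it, from 2 of 12 in T2 and 5 of 12 in T5 to 7 of 12 in T3 and T4 and 6 of 8 in T1.

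By mean level, read with the caution above on levels between genes, the order was Il7r, Ccr7, Satb1, Lef1, Tcf7 and Klf2. The SD over cells exceeded the mean for each gene, so no neighbours in this order differ beyond their spread. By share of cells, the intervals of neighbours overlap in the order Satb1, Il7r, Lef1, Ccr7, and again for Tcf7 and Klf2. The interval of Ccr7 starts above the end of those of Tcf7 and Klf2. All shares come from the same cells, so this is no test of a difference.

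Variation between cells was set against that of genes of like mean. The measure was the squared coefficient of variation (CV2) on a log2 scale, minus its running median along genes sorted by mean. It was taken for 7871 genes, those found in 10 or more cells. Of all these genes, 13.1% were above 1 and 15.1% below -1. Ccr7 was at 1.004, right at the upper limit, and at 0.53 without its highest cell. The others that entered were unremarkable: Il7r at 0.20, Lef1 at -0.36 and Satb1 at -0.85, while Klf2 and Tcf7 were in too few cells to enter.

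Each cell carried at least 1 of the 6 genes. The median cell had 3 (mean 3.27), with 1 in 3 cells, 2 in 7, 3 in 25, 4 in 15, 5 in 5 and 6 in 1. The cells with 1 were T4_1, T4_3 and T5_11; T4_3 also had the fewest genes detected. T3_7 had all but Klf2, at 928 TPM Ccr7, 252 Tcf7, 97 Lef1, 88 Il7r and 193 Satb1, with 4102 genes detected. T3_5 had all 6, but with 8396 genes detected, where the next highest cell had 6983. It was also the only cell with the CD8 T cell marker Cd8b1 (24 TPM), and whether it held 1 cell was not tested. The number of the 6 genes per cell had a Spearman rho of 0.38 with the number of genes detected over the 56 cells; its part in the combinations was not tested, beyond the partial values given with them.

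**Figure D2:**
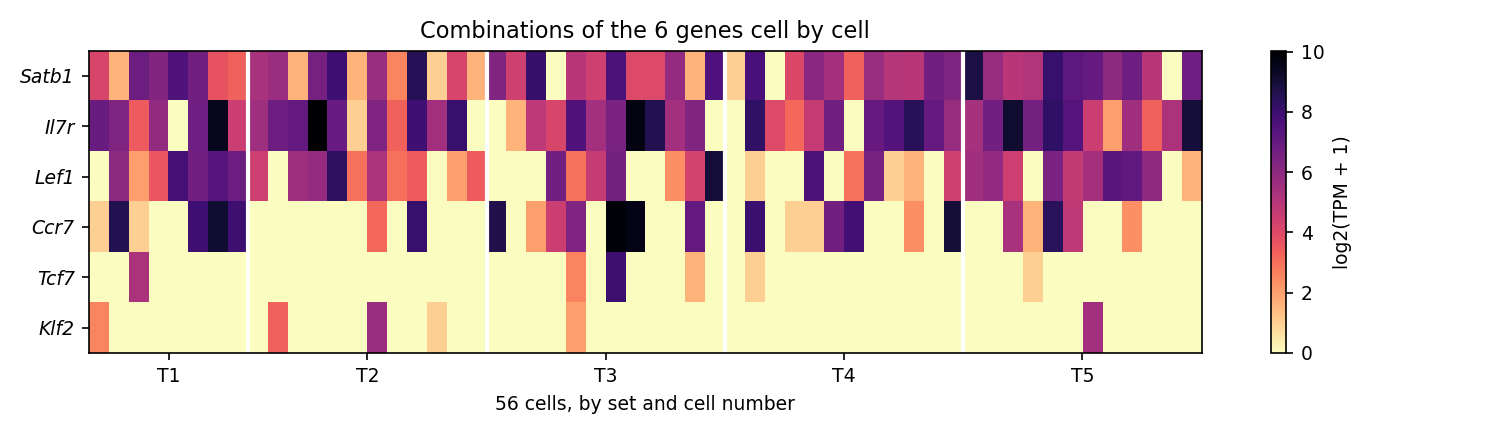
The 6 genes (rows) in each of the 56 cells (columns, by set and cell number); colour gives log2(TPM + 1). Satb1, Il7r and Lef1 fill most columns, and Tcf7 and Klf2 appear in scattered cells, with T3_5 in set T3 the fullest column.

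The common combination was the trio of widely detected genes. Lef1, Il7r and Satb1 were together in 36 cells, and 17 of these had none of the other 3 genes. Each of the 3 was in most cells, so a large overlap follows from the single shares. Lef1 and Il7r were together in 37 cells (36.6 expected), Lef1 and Satb1 in 40 (38.8), and Il7r and Satb1 in 47 (47.3). A further 12 cells had the trio with Ccr7 and nothing else. At 10 TPM or more, 20 cells held the trio and 3 cells held none of the 6. In 26 cells all of Ccr7, Klf2 and Tcf7 were below detection.

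Of the 15 pairs among the 6 genes, 2 had a rho of at least 0.3. The share of all genes at or above 0.3 ran from 1.61% with Ccr7 to 4.27% with Lef1. At 1 TPM, all 6 Tcf7 cells had Ccr7, with 2.89 expected (rho 0.33). At 5 TPM for both, 2 of 3 Tcf7 cells did, and at 10 TPM 1 of 2. With so few Tcf7 cells this rho is carried by 6 values. It was 0.28 with ranks centred by set and 0.21 without set T3, which held 3 of the 6 cells. The values in those Ccr7 cells were uneven, from 928 TPM in T3_7 to 1 TPM in T1_3.

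Lef1 and Satb1 were the other pair, with a rho of 0.30. Centring the ranks by set gave 0.28, removing the rank of genes detected gave 0.30, and leaving out set T5 gave 0.19. In 8 of 12 alternatives the value fell under 0.3, so this relation is weak. Within sets T1 to T5 it was 0.05, 0.47, -0.02, 0.35 and 0.38. At 100 TPM or more, 4 cells held both, of 8 with Lef1 and 15 with Satb1. The 13 remaining pairs lay between -0.17 (Klf2 and Lef1) and 0.25 (Ccr7 and Il7r), and Tcf7 and Lef1 were at -0.08. Tcf7 was detected in 6 cells only, so its ranks are mostly ties. The value of -0.08 therefore cannot show whether the related factors Lef1 and Tcf7 rank cells alike. Lef1 was in 5 of the 6 Tcf7 cells, with 4.39 expected. T3_12, highest in Lef1, was listed at 0 for Tcf7.

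For Lef1 and Satb1, the 100 bases upstream of 1 RefSeq start of each are given, from the GRCm38.p6 table. The authors' build is mm9, and the start used in these cells is not known. Windows of 300 bases around 13 start sites were searched on both strands, those of Klf2 (1), Tcf7 (2), Lef1 (4), Il7r (1) and Satb1 (5); Ccr7 had no entry. The letters sought were CTTTGTT and CTTTGAA, which TCF and LEF proteins are known to bind, GTAAACA (FOXO factors) and CACCC (KLF factors). The capitals mark CTTTGTT, found 18 bases before the fourth Satb1 start. This Satb1 start was picked because its window holds these letters, while the Lef1 start is the first listed. The match is therefore no finding about the pair. That Satb1 window is chr17:51812185-51812284 on the minus strand, and the Lef1 window is chr3:131110197-131110296 on the plus strand.
Satb1: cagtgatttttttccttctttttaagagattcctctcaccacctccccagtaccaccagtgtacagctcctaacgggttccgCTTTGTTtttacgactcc
Lef1: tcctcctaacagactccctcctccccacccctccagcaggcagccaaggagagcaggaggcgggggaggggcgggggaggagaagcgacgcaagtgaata
CTTTGTT was in 2 of the 5 Satb1 windows, which overlap and share that match, and in none of the other 8. It is in 5.85% of all 32851 windows of this length. CTTTGAA was in none of the 13 (5.14% of all), GTAAACA was in 1 Tcf7 window (3.65% of all), and CACCC, in 57.5% of all, was in every window but those of Il7r and 1 of Satb1. A match is a description of letters and not a bound site.

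Relations with activation genes and cytokines were described by Spearman's rho over the 56 cells, and a rho of at least 0.3 or at most -0.3 was counted. The cells share a group and differ in genes detected, so each value is given as a description. For comparison, the same count was made over the 7870 other genes detected in at least 10 cells (7871 for Klf2 and Tcf7, which are not among them). The activation list held 25 genes, of which 23 entered, and the Th2 cytokine list 11, all entered.

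Satb1 was the one of the 6 genes with many relations to activation genes. Cells with more Satb1 had more of the receptors Ctla4, Icos, Tnfrsf18 and Il2ra, and less Il2, Nfkbid, Cd40lg, Zbtb32 and Nr4a3. Of the 23 activation genes, 4 had a rho of at least 0.3, against 3.48% of all genes, and 5 had a rho of at most -0.3, against 1.37% of all genes. The list's median was -0.13, and that of all genes 0.02.

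On the positive side, the inhibitory receptor Ctla4 stood at 0.60, the costimulator Icos at 0.43, the tumour necrosis factor receptor Tnfrsf18 (GITR) at 0.43 and Il2ra at 0.42. Each had a positive rho within all 5 sets, but not an even one. For Il2ra it was barely positive in T5, and for Icos it was small in T3 and T4. For Ctla4 the values were 0.60, 0.43, 0.70, 0.77 and 0.21. Of the 15 cells at 100 TPM Satb1 or more, 13 held at least 100 TPM Ctla4, as did 6 of the other 41 cells. The levels of 100 and 1000 TPM used for such counts were chosen after the values were seen.

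On the negative side, the NF-kB regulator Nfkbid was at -0.41, the T cell growth factor Il2 at -0.40, the helper ligand Cd40lg at -0.36, Zbtb32 at -0.32 and the early response gene Nr4a3 at -0.32. For Il2 the rho within sets T1 to T5 was -0.07, -0.32, -0.05, -0.51 and -0.33. The 2 cells with most Il2, T4_1 at 31888 TPM and T2_8 at 20652 TPM, held 1 and 5 TPM Satb1. In the 5 cells with most Satb1, Il2 was 2, 0, 35, 0 and 0 TPM. Of 11 cells with at least 1000 TPM Il2, 1 reached 100 TPM Satb1 (T1_6, just above that level), with 2.95 expected. Low Il2 alone did not mark Satb1 cells: T3_4 and T4_3, both without Satb1, held 2 and 1 TPM Il2.

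The remaining activation genes lay between these values with Satb1. They were 0.16 for Cd69, 0.11 for Tnfrsf4, 0.07 for Myc, Egr2 and Cd44, 0.03 for Nfkbia, -0.12 for Tnfrsf9, -0.13 for Nr4a2, -0.17 for Lta, -0.18 for Egr1, -0.19 for Nr4a1, -0.20 for Tnfsf11 and Tnf, and -0.29 for Tnfsf8. Egr3 and Irf8 were in too few cells to enter. Of the nuclear receptors Nr4a1, Nr4a2 and Nr4a3, all had negative values, but Nr4a3 was in 14 cells at a mean of 4.21 TPM.

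Lef1 also had a negative rho with Il2, -0.37. Within the sets it was -0.46, -0.60, -0.18, -0.25 and -0.66. None of the 8 cells at 100 TPM Lef1 or more reached 1000 TPM Il2, with 1.57 expected, and Il2 was at most 2 TPM in the 5 cells with most Lef1. Tnfrsf18 stood at 0.33, Il2ra at 0.29 and Icos at 0.27. So 1 of 23 activation genes was at or above 0.3, where 4.27% of all genes were, and 1 was at or below -0.3, where 0.368% were.

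Il7r was related to 1 activation gene, Icos, at 0.40, with positive values in all 5 sets (0.07, 0.68, 0.31, 0.44 and 0.51). Tnfrsf9 (0.30, just under the limit) and Ctla4 (0.28) followed, and Il2 was at -0.15. Over all genes, 3.16% were at or above 0.3 with Il7r and 0.534% at or below -0.3. Of 22 cells with at least 100 TPM Il7r, 17 held as much Icos, with 14.5 expected.

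Ccr7 had no activation gene past 0.3 in either direction. Over all genes, 1.61% were at or above 0.3 with Ccr7 and 0.775% at or below -0.3. The lowest values with Ccr7 were -0.24 for Nr4a3 and -0.21 for Tnfsf8 and Cd40lg, and the highest was 0.12 for Icos. Cells with Ccr7 were thus spread over low and high levels of these genes.

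Of the rare genes, Klf2 was in cells with Il2. All 6 Klf2 cells had Il2 (4.18 expected, rho 0.32), and its rho with Il2ra was -0.35, while Cd69 was at -0.24. So 1 of 23 was at or above 0.3, where 3.94% of all genes were, and 1 at or below -0.3, where 0.0381% were. With 6 cells, these values are carried by few points: Il2ra was 136 and 472 TPM in the highest 2, T2_7 and T5_7. Tcf7 had no activation gene past 0.3, where 2.81% of all genes were at or above 0.3 and 0.0635% at or below -0.3.

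**Figure D3:**
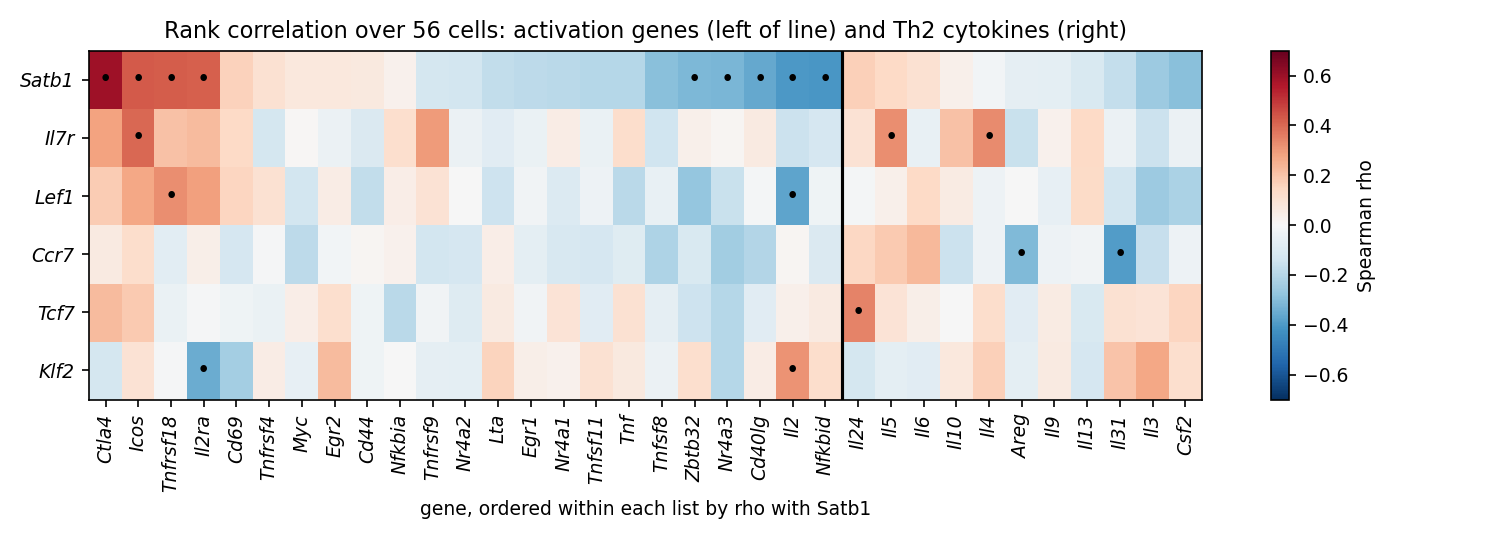
Spearman's rho over 56 cells of the 6 genes (rows) with 23 activation genes (left of the line) and 11 Th2 cytokines (right), each ordered by the value with Satb1; dots mark a rho of at least 0.3 or at most -0.3. The row of Satb1 holds 9 dots among activation genes and none among cytokines; the row of Ccr7 holds 2, both among cytokines.

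Among the cytokines, Ccr7 and Il7r had 2 past 0.3 each and Tcf7 had 1. Of all genes, 0.775% were at or below -0.3 with Ccr7, and 3.16% with Il7r and 2.81% with Tcf7 at or above 0.3. Satb1 had none, and the values with the Th2 locus genes Il4, Il5 and Il13 were -0.02, 0.14 and -0.11. Its lowest were -0.29 for Csf2 and -0.26 for Il3, the growth factors for myeloid cells, followed by Il31 (-0.17), Il9 (-0.07) and Areg (-0.06), and its highest were Il24 (0.17), Il6 (0.10) and Il10 (0.04). Lef1 likewise had none, with -0.25 for Il3 and -0.22 for Csf2 as the lowest.

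Ccr7 was low where the itch cytokine Il31 was present. The rho was -0.39, negative in all 5 sets (-0.54, -0.22, -0.23, -0.69 and -0.14). Il31 was in 8 of the 27 Ccr7 cells, with 11.6 expected. Among the 14 cells at 100 TPM Ccr7 or more, 1 had Il31 (T3_11, 48 TPM), against 23 of the other 42 cells. The tissue repair factor Areg had a rho of -0.31 with Ccr7, but high Areg was not missing from high Ccr7 cells: 6 of the 14 held at least 100 TPM, with 5.75 expected. So 2 of 11 cytokines were at or below -0.3 (0.775% of all genes) and none at or above 0.3 (1.61% of all genes). Il4, Il5 and Il13 were at -0.04, 0.19 and -0.03.

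Il7r went with Il4 (rho 0.33) and Il5 (0.32), 2 of 11 cytokines, where 3.16% of all genes were at or above 0.3. All 14 cells with Il5 had Il7r, at 37 to 825 TPM, with 12.5 expected. The relation to Il4 was uneven between sets, at 0.14, -0.08, 0.62, 0.77 and -0.21, and was 0.17 without set T4. For Il5 it was 0.25, 0.13, 0.46, 0.42 and 0.37. Il13 was at 0.14, Il10 at 0.20 and Il3 at -0.15. Tcf7 had a rho of 0.35 with Il24, from 6 cells, and Klf2 had none past 0.3, with Il3 highest at 0.27.

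**Figure D4:**
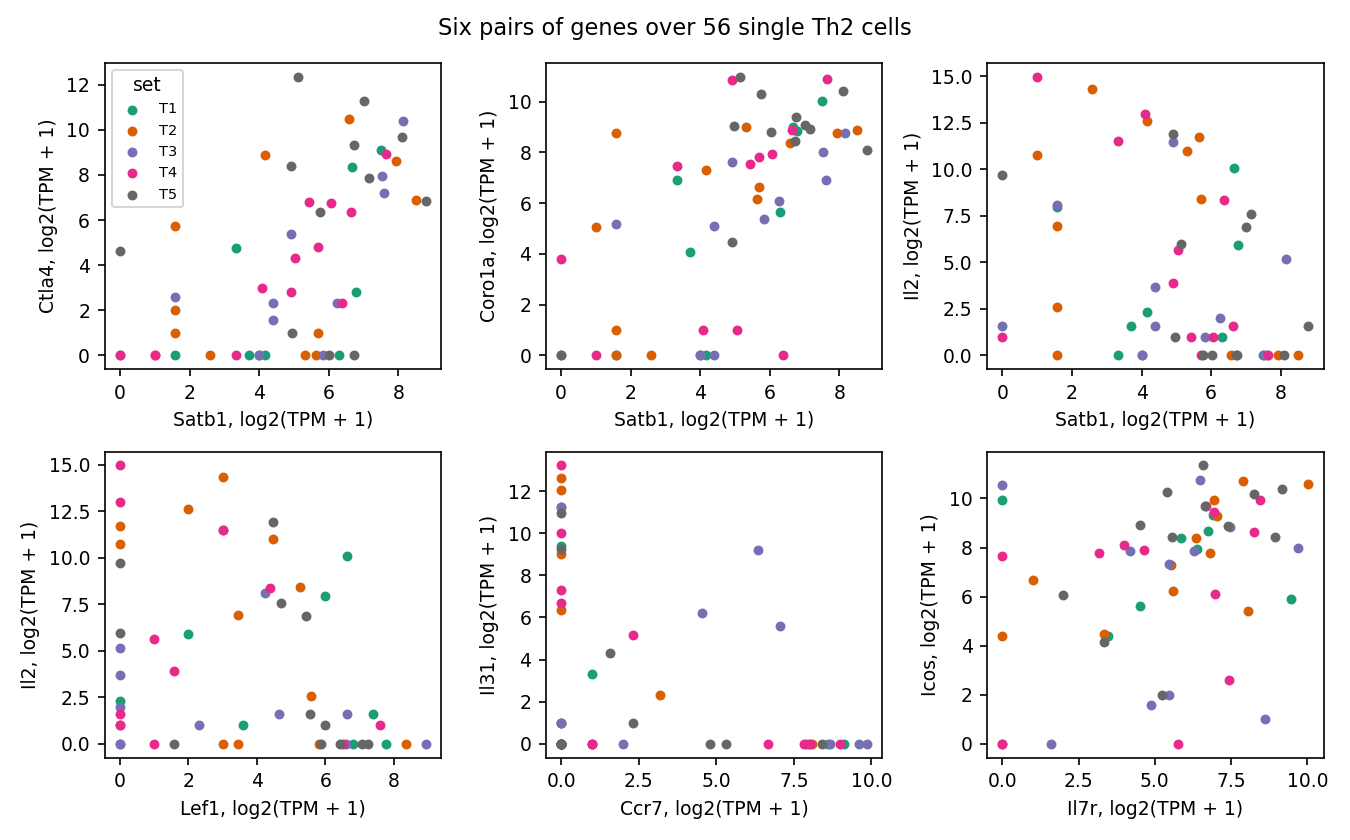
Pairs of genes, both axes log2(TPM + 1), each point 1 of 56 cells coloured by set. Of the 15 cells at 100 TPM Satb1 or more, 15 hold at least 100 TPM Coro1a, 13 as much Ctla4, and 1 at least 1000 TPM Il2; the 14 cells at 100 TPM Ccr7 or more include 1 with Il31.

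Other genes of the naive and homing programmes were followed from lists. Of 29 partners in naive cells, 24 were measured and 18 entered. The antiproliferative gene Btg1 (mean 1441 TPM, 56 cells) and Klf6 (317 TPM, 54 cells) were the most abundant, and Bach2, a repressor of effector genes, was in 45 cells. With Satb1, 5 of 18 had a rho of at least 0.3 (3.48% of all genes) and none of at most -0.3 (1.37%). These 5 were led by Pdcd4, an inhibitor of translation (0.44). The rest, named after their values were seen, were Ets1 and Dgka at 0.36, Txnip at 0.31 and Id3 at 0.30. The list's median rho with Satb1 was 0.12. Of the 18, Il7r had 3 at or above 0.3 (3.16% of all genes), Lef1 1 (4.27%), Ccr7 1 (1.61%), Klf2 1 (3.94%) and Tcf7 0 (2.81%). The lowest value with any of the 6 was -0.26, for Bach2 with Ccr7.

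Of 19 homing genes, 15 were measured and 13 entered. Coro1a, an actin regulator needed for T cell survival and egress, had the highest rho of all genes with Satb1, 0.67, with 0.78, 0.56, 0.84, 0.51 and 0.25 within the sets. All 15 cells at 100 TPM Satb1 or more held at least 100 TPM Coro1a, against 16 of the other 41. The receptors of lymph node exit, S1pr1 and S1pr4, named after their values were seen, were each in 8 cells, at means of 4 and 7.77 TPM. Cxcr4 was the other of the 13 entered homing genes past 0.3 with Satb1 (0.39). S1pr1, in too few cells to enter, was at 0.48 with Satb1, from 8 cells. With Ccr7 and Lef1, 1 homing gene each passed 0.3: Itgb7 (0.32) and Gpr183 (0.35). The shares of all genes at or above 0.3 were 3.48% with Satb1, 1.61% with Ccr7 and 4.27% with Lef1. The lowest value of the list was -0.23, for Gnai2 with Tcf7.

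Of 17 partners of TCF and LEF factors, 15 were measured and 10 entered. The coactivator beta-catenin (Ctnnb1) was in 37 cells at 68.5 TPM. Its rho was 0.19 with Lef1 and 0.15 with Tcf7. None of the 10 partners passed 0.3 with Lef1, where 4.27% of all genes were at or above 0.3. A count of 0 of 10 is near that share. Bcl11b, a factor of T cell commitment, was in all 6 Tcf7 cells, with 3.21 expected (rho 0.36). Gata3 was at 0.21 with Lef1, 0.02 with Tcf7, 0.19 with Satb1 and -0.28 with Klf2.

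The signalling partners of the interleukin-7 receptor ranged from ubiquitous to rare. The shared gamma chain Il2rg was in 56 cells at 4512 TPM, and the STAT5 target Cish in 56 at 836 TPM. The signal transducer Stat5b was in 31 cells, and the kinase Jak3 and the inhibitor Socs1, named after their values were seen, in 18 and 11. None of 16 entered partners had a rho past 0.3 with Il7r, with Il2rg at 0.00, Cish at 0.19 and Stat5b at -0.28. Over all genes, 3.16% were at or above 0.3 with Il7r and 0.534% at or below -0.3. A count of 0 of 16 is near those shares. With Satb1, 2 of the 16 passed, Stat3 and Pim2, both at 0.42, where 3.48% of all genes were at or above 0.3.

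Of the cell cycle genes, 28 of 28 entered. Ccr7, Klf2, Tcf7 and Lef1 had 1 each at or above 0.3. The shares of all genes there were 1.61%, 3.94%, 2.81% and 4.27%, and 3.48% with Satb1 and 3.16% with Il7r. The counts are near those shares. Satb1 and Il7r had none past 0.3, with list medians of -0.002 and 0.08. The largest value was 0.46, for the mitotic checkpoint kinase Bub1 with Ccr7, detected together in 13 cells with 7.71 expected; within sets T1 to T5 it was 0.18, 0.50, 0.70, 0.00 and 0.48. The lowest was -0.28, for the replication licensing factor Cdt1 with Satb1. The most abundant genes of the list, Pcna and Rrm2, were at 327 and 270.1 TPM.

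For each gene detected in at least 10 cells, the genes whose levels ranked the cells most alike were listed. Satb1 was nearest to Coro1a (0.67), Ctla4 (0.60) and the glutaredoxin gene Glrx (0.57), and farthest from Tgif1 (-0.50) and Srxn1 (-0.47). Il7r was nearest to Samd9l (0.54), D630039A03Rik (0.50) and the leukotriene receptor Cysltr1 (0.49), and farthest from the tRNA synthetase Tars (-0.47) and Ap3d1 (-0.44). Lef1 was nearest to the mitochondrial ribosomal gene Mrpl13 (0.51), Aebp1 (0.49) and Tceb3 (0.49), with Slc25a26 (-0.43) and Oaz2_ps (-0.43) farthest. Ccr7 was nearest to Sae1 (0.50), Tmco1 (0.50) and Dip2b (0.49), with Spry1, an inhibitor of receptor signalling, and Kdm2b both at -0.41. Each list is the extreme of 7870 values, so some large values arise in such a search.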

How the data were processed

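The 6 genes and the gene lists were chosen with earlier results of these data known; 1 further gene of the set is not reported here. Values were deposited as a score, namely TPM rounded by the authors, with each cell summing to between 999202 and 999914; FastQC, Bowtie 0.12.2 and Cufflinks and the build mm9 are named in the submitters' processing notes, with roles and annotation not given in the sources used here. Each gene of the table reached at least 5 TPM in some cell. Symbols were matched to RefSeq (GRCm38.p6) for capital letters: 9357 current, 1086 older and 122 unmatched.

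Detection was 1 TPM or more. Spearman's rho, CV2 and exact Clopper-Pearson 95% intervals were computed with Python 3.11.15, NumPy 2.4.6, SciPy 1.17.1 and pandas 2.3.3, and the code was tested on simulated data. Partial rho removes the rank of genes detected per cell; ranks centred by set remove differences between set means. Expected joint counts are the product of 2 shares times 56. No test between cells was run. No 2 cells held identical values.

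The rule for named genes took the 6 genes, all activation genes and cytokines, up to 4 genes of each other list (the 2 highest means, the largest and the smallest rho), and the 3 nearest and 2 farthest genes of each member in at least 10 cells. Alternatives were other thresholds, other correlations, rescaled TPM, and leaving out sets or cells. Depth per cell is unknown.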

Additional observations from a re-analysis of the deposited data

How the results depend on the processing

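No paired analysis was possible because the cells form 1 group. Shares of cells moved most with the detection threshold. At 5 TPM or more, Ccr7 was in 33.9% and Satb1 in 82.1% of cells, and at 10 TPM or more Ccr7 was in 32.1%, Klf2 and Tcf7 in 3.57% each, Lef1 in 53.6% and Satb1 in 76.8%. The other 41 of 48 alternatives for shares stayed within the interval of the reported share, among them leaving out each set or cells T3_2 and T3_5. The number of activation genes with Satb1 was 2 in place of 4 at 0.3 or more with Pearson's r of log2(TPM + 1), and 3 in place of 5 at -0.3 or less without set T3. Of 45 alternatives for the number of cells with a pair of genes, 20 moved it by over 1.5 times, mostly through the threshold. Excess variation of Ccr7 was between 0.52 and 0.93 in 6 alternatives, all under the limit of 1, and that of Satb1 was below -1 without T2 (-1.25) or without its highest cell (-1.14). Over the 10 alternatives run for each, the rho of Satb1 ranged from 0.53 to 0.65 with Ctla4, from -0.46 to -0.32 with Il2 and from -0.50 to -0.33 with Nfkbid, that of Ccr7 with Il31 from -0.47 to -0.30 and that of Il7r with Icos from 0.33 to 0.46. Some of the others crossed 0.3: Satb1 with Icos (lowest 0.26), Tnfrsf18 (0.29), Cd40lg (-0.23 nearest to 0), Zbtb32 (-0.25) and Nr4a3 (-0.26), Ccr7 with Areg (-0.22), Il7r with Il4 (0.17) and Il5 (0.25), and Lef1 with Satb1 (0.19), Tnfrsf18 (0.25) and, barely, Il2, and Ccr7 with Tcf7 (0.21). None of these changed sign. The relations of Klf2 and Tcf7, from 6 cells each, crossed it as well. The causes were not tested. Leaving out the 2 cells farthest from a gene's median was chosen after seeing the data. TPM keeps no depth, so a value of 0 cannot be given a detection limit.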

Other observations

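Some T cell markers had a positive rho with Il7r and Satb1. Of 8 T cell markers, 3 had a rho of at least 0.3 with Il7r, where 3.16% of all genes did: Cd3d (0.45), Cd28 (0.34) and Cd3g (0.31). With Satb1 these were 4, against 3.48% of all genes: Cd3d and Cd4 (0.36 each), Cd3g (0.32) and Cd28 (0.31). The list's median was 0.26 with Il7r and 0.29 with Satb1, against 0.05 and 0.02 over all genes. Cd3e, the remaining CD3 chain of the list, was at 0.24 with Il7r and -0.08 with Satb1. Lck, the kinase that starts receptor signalling, was at 0.04 and -0.03. Ccr7, Lef1, Tcf7 and Klf2 had none of the 8 markers past 0.3. These genes were named after their values were seen.

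Klf2 was detected together with the costimulatory receptor Cd27 in 5 of its 6 cells, with 2.14 expected, and with the cytokine signalling inhibitor Socs1 in 4, with 1.18 expected. These counts were picked after the values were seen and rest on 6 cells.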
